A study of Mus musculus with 6 samples.

Results

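The tumour necrosis factor (TNF) superfamily pairs ligands, most of them anchored in the membrane of immune cells, with receptors that carry cysteine-rich domains outside the cell. Some of the receptors hold a death domain and can start apoptosis, others recruit TRAF adaptors and switch on the transcription factor NF-kB, and a few are decoys that bind ligand without a full signal. In lung the family is known for inflammation, lymphoid organisation, survival of B cells and the killing of tumour cells by lymphocytes. The members were taken by symbol: every protein-coding gene whose name begins with Tnfsf or Tnfrsf, together with Tnf, Lta, Ltb, Ltbr, Fas, Fasl, Cd27, Cd70, Cd40, Cd40lg, Ngfr, Eda and Edar. The rule gave 45 genes, 19 ligands and 26 receptors, of 20687 gene symbols in the table, 17590 of them protein-coding.

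Transcripts were counted in 3 samples of whole lung and in 3 samples of KP cells, a line used to grow tumours in mouse lung, in a study that compared chemokine expression between the tumour-bearing organ and the line on its own. Lung_KP samples came from C57BL/6 mice that had received 100000 KP cells through the tail vein, and whose lungs were taken 28 days later and digested with collagenase before total RNA was prepared. The series' design text speaks of tissue pooled from 3 mice and of 3 independent experiments, without saying which of these a single sample stands for. CellLine_KP samples were triplicate RNA preparations of the same line, labelled C57BL/6 like the mice. The labels give neither the genotype of the line nor the age of the mice, and no lung without tumour was included. They do not say that the triplicates were separate cultures. Their spread may therefore be technical, and p-values measure no more than the spread between samples.

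Estimated counts summed to between 17786758 and 22862396 per sample, and a count of 0 allowed up to 3 counts, or 0.131 to 0.169 CPM, where CPM is the count scaled to the sample's total. These floors, like the intervals given later, account for counting error alone. For all other CPM values the sample's total was first scaled by trimmed means (TMM). Within the lung group replicate 2 stood apart: its log2 CPM correlated across genes at 0.933 and 0.901 with replicates 1 and 3, which correlated at 0.973 with each other. Within the cell line group replicate 1 stood apart, at 0.960 and 0.958 against 0.984 between replicates 2 and 3. Markers of alveolar type 2 cells summed to 14580 to 21140 CPM in lung and to at most 0.105 CPM in the cell line, where Sftpa1, Sftpd and Slc34a2 were at 0. The cell line samples did hold lymphoid transcripts. All 6 B cell markers and all 9 T cell markers were above 0 in each of them and were called higher in lung, at a sum of 142 to 281 CPM in lung and 39.2 to 74.2 CPM in the cell line for B cells, and of 189.5 to 227 CPM in lung and 14.5 to 25.0 CPM in the cell line for T cells. Of 7 macrophage markers 6 were called higher in lung, and these 6 summed to 660.0 to 916 CPM in lung and 24.3 to 40.4 CPM in the cell line. The other, Mrc1, did not pass, at 118.5, 47.5 and 127 CPM in lung, against 31.3, 163 and 172.5 CPM in the cell line. The part of such transcripts in the levels of members that immune cells express was not tested.

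Most members were more abundant in the tumour-bearing lung, and every ligand that passed the test did so in that direction, while the TRAIL death receptor Tnfrsf10b, the decoys Tnfrsf22 and Tnfrsf23, their neighbour Tnfrsf26 and the TWEAK receptor Tnfrsf12a were more abundant in the cell line. Of 45 members, 41 passed the filter on low counts. Among those 41, edgeR's quasi-likelihood test at an adjusted p below 0.05 called 28 higher and 5 lower in lung, and 8 did not pass. Over all 15212 genes tested, 31.3% were called higher and 17.5% lower in lung. The median log2 fold change, lung minus cell line, was 2.62 over the tested members and 0.08 over all genes tested. In 29 members every lung sample lay above every cell line sample and in 6 every lung sample lay below, and these patterns were found in 35.6% and 26.5% of all genes tested. The filter keeps a gene that is high in 1 group only, so these counts describe the tested members and not the whole family. With at least 10 counts required in all 6 samples, 22 members were tested, of which 10 were called higher and 5 lower, against 21.3% higher and 14.2% lower of all genes tested in that way.

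Of the 16 tested ligands, 13 were called higher and 3 did not pass, beside 31.3% higher and 17.5% lower over all genes tested. Some of the 13, such as Tnfsf14 and Fasl, passed the filter on low counts through their lung samples alone. The count therefore describes the tested ligands and not ligands in general. None was called lower by edgeR, also at an unadjusted p below 0.05, and DESeq2 and limma-voom likewise called 0 lower. Of the 25 tested receptors, 15 were called higher, 5 were called lower and 5 did not pass. Summed over the 19 ligands, CPM on library sizes scaled by trimmed means (TMM) came to 289.6, 273.9 and 316 in lung replicates 1, 2 and 3, against 35.7, 31.9 and 29.4 in the cell line. Summed over the 26 receptors, CPM came to 772, 814 and 774 in lung and to 1305, 1105 and 1102 in the cell line. The ligand sums were thus higher and the receptor sums lower in lung, with no overlap between the groups. The 5 receptors called lower held most of the receptor sum in the cell line. Tnfrsf12a, Tnfrsf23, Tnfrsf22, Tnfrsf26 and Tnfrsf10b had means of 303, 186, 178, 105 and 71.4 CPM there, of a mean sum of 1171. In lung they had 104, 15.5, 15.2, 6.76 and 19.0 CPM, of a mean sum of 787. The lower receptor sum therefore does not describe receptors in general. Sample values below are CPM on TMM-scaled library sizes in the order of replicates 1, 2 and 3. Whole lung mixes many cell types, and fewer cells of a type and less RNA per cell cannot be told apart in such samples.

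**Figure D1:**
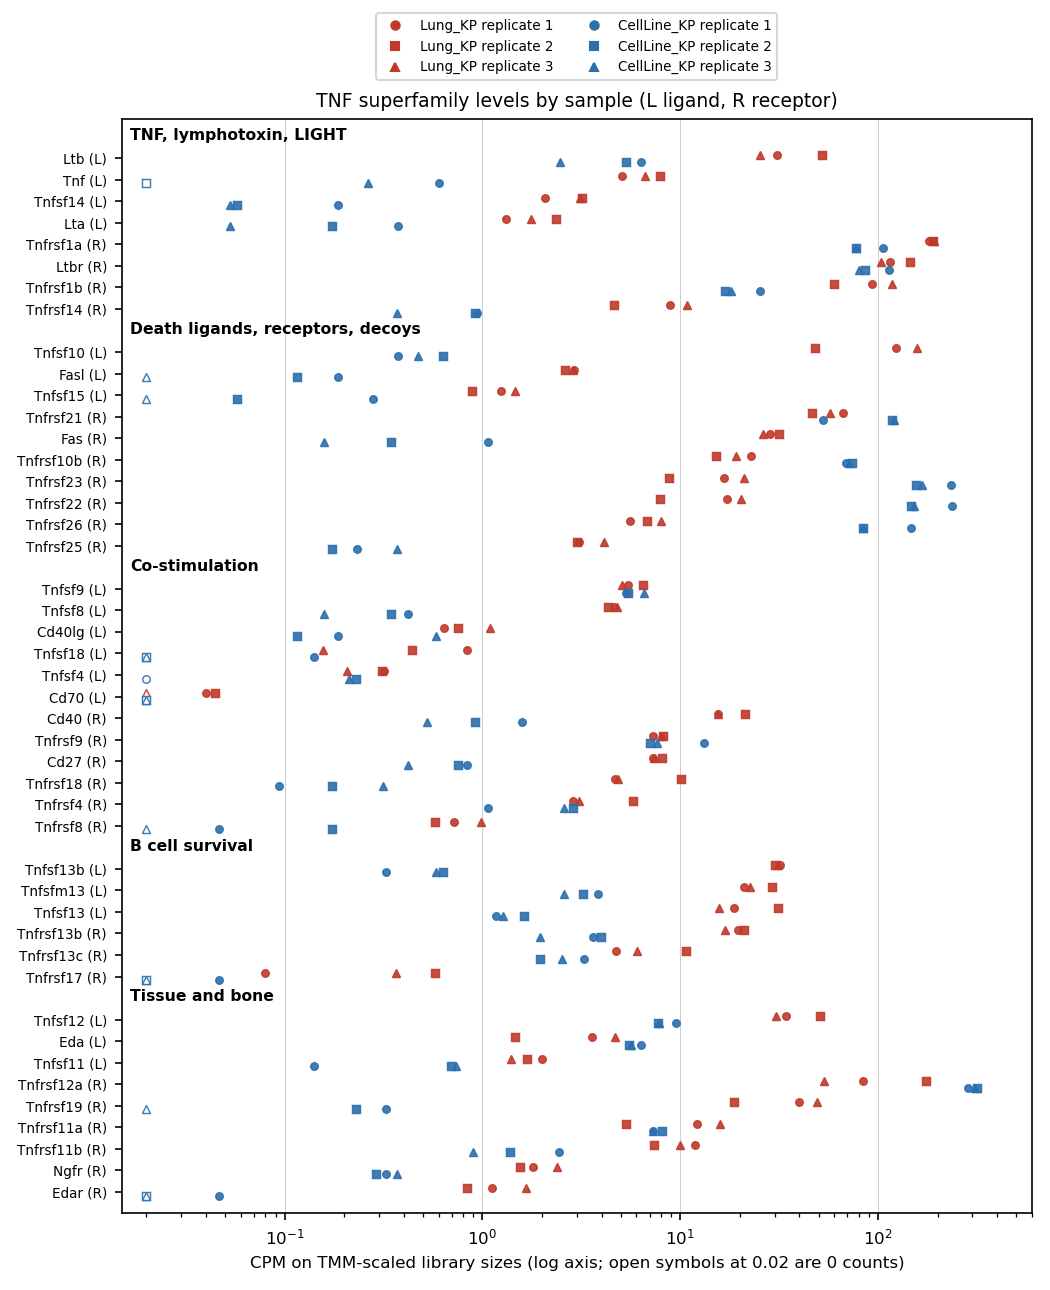
Levels of the 45 members by sample in CPM on a log axis, grouped by role, with lung samples in red and cell line samples in blue and open symbols for 0 counts. Most ligands sit to the right in lung, with Tnfsf10 at 48.2 CPM or more in all 3 lung samples and below 1 CPM in the cell line, whereas Tnfrsf12a, Tnfrsf10b, Tnfrsf22, Tnfrsf23 and Tnfrsf26 sit to the right in the cell line.

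**Figure D2:**
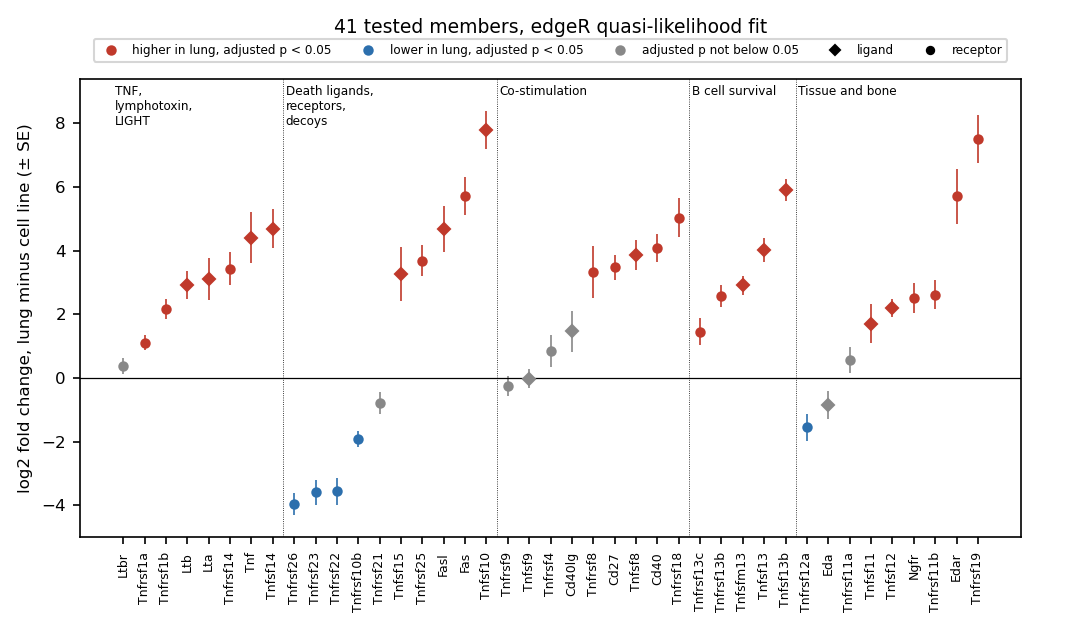
Fitted log2 fold change, lung minus cell line, with its standard error for the 41 tested members, by role, with diamonds for ligands and circles for receptors. Red points passed the test and were higher in lung (28), blue points passed and were lower (5) and grey points did not pass (8); the fitted value of Edar, with 1 count in the cell line, depends on the prior count of the fit.

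TNF itself and the lymphotoxins were low in the cell line, and their levels in lung ranged from moderate (Ltb) to scarce (Lta). The receptors of this group ranged from abundant in both lung and cell line (Tnfrsf1a and Ltbr) to scarce in the cell line (Tnfrsf14). All 4 ligands of this group were called higher in lung, as were 3 of its 4 receptors, beside 31.3% of all genes tested. Ltb, the membrane-bound subunit of the lymphotoxin heterotrimer, had 30.8, 52.1 and 25.2 CPM in lung, against 6.35, 5.30 and 2.48 CPM in the cell line. Its lung samples all lay above the cell line samples, and replicate 3 was the lowest of the cell line samples (edgeR adjusted p = 0.000929, log2 fold change 2.93 ± 0.44 SE). Tnf, the inflammatory cytokine that names the family, had 5.07, 7.87 and 6.60 CPM in lung, against 0.607, 0 and 0.263 CPM in the cell line. All lung samples exceeded all cell line samples, and 1 cell line sample had 0 counts (edgeR adjusted p = 0.00233, log2 fold change 4.41 ± 0.80 SE). Without cell line replicate 1 the log2 fold change of Tnf was 5.51, and without replicate 2 it was 3.80. The other ligands were scarcer. Tnfsf14 (LIGHT), which binds the receptors Ltbr and Tnfrsf14, ranged from 2.08 to 3.18 CPM in lung and from 0.0527 to 0.187 CPM in the cell line, with a log2 fold change of 4.69 that was 5.50 without cell line replicate 1. Lta, the soluble lymphotoxin, ranged from 1.318 to 2.34 CPM in lung and from 0.0527 to 0.373 CPM in the cell line, with a log2 fold change of 3.11 that was 3.94 without cell line replicate 1.

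The promoter of Tnf is shown because the family takes its name from the gene and its core promoter is compact. The window is the RefSeq one for GRCm38.p6, chr17:35201958-35202257 on the minus strand, from 250 bases before to 50 bases after the gene start. Capitals mark a TATAAA match at position -29 and a CCGCCC match, the reverse complement of GGGCGG, at position -49 relative to the start.
Tnf promoter: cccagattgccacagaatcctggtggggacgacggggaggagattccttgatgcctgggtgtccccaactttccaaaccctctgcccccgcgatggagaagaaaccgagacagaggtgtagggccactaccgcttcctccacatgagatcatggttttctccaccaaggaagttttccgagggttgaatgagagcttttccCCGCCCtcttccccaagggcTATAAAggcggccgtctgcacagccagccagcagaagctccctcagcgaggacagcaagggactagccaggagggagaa
Such windows were searched on both strands for the TATA box spelled TATAAA, the Sp1 box spelled GGGCGG, the AP-1 motif spelled TGANTCA and the degenerate NF-kB consensus, and no matches of different motifs overlapped in the windows printed. Of 32851 promoters in the RefSeq table, 13.62% held TATAAA, 35.66% held GGGCGG, 7.81% held TGANTCA and 8.46% held the NF-kB consensus. Of the 45 members 35 matched the table, with 39 promoters, of which 6 held TATAAA, 19 held GGGCGG, 7 held TGANTCA and 4 held the NF-kB consensus. The promoters with the NF-kB consensus were those of Ltb, Tnfrsf8, Tnfrsf9 and Tnfrsf25. A match describes letters and not a bound site.

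Among the receptors of this group, Tnfrsf1a, the death-domain receptor of TNF that most cells carry, had 182, 189.7 and 192 CPM in lung, against 105, 77.3 and 77.1 CPM in the cell line. The lung values lay close together and above every cell line value (edgeR adjusted p = 0.00547, log2 fold change 1.12 ± 0.24 SE). Without cell line replicate 2 the adjusted p of Tnfrsf1a was 0.0538, at a log2 fold change of 0.96. Tnfrsf1b, the TNF receptor without a death domain that is known from leukocytes and endothelium, had 93.6, 60.0 and 117 CPM in lung, against 25.4, 16.8 and 18.02 CPM in the cell line. The groups did not overlap, and lung replicate 2 was the lowest lung sample (edgeR adjusted p = 0.000924, log2 fold change 2.17 ± 0.33 SE). Tnfrsf14, the herpesvirus entry mediator that binds LIGHT, had 8.83, 4.60 and 10.9 CPM in lung, against 0.933, 0.921 and 0.369 CPM in the cell line. Every lung value was several times every cell line value (edgeR adjusted p = 0.000936, log2 fold change 3.44 ± 0.52 SE). Ltbr, the lymphotoxin beta receptor of stromal and epithelial cells, had 115, 144 and 103 CPM in lung, against 114, 86.3 and 80.3 CPM in the cell line. The ranges of Ltbr overlapped, and it did not pass the test (edgeR adjusted p = 0.264, log2 fold change 0.37 ± 0.26 SE).

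In the TRAIL system the ligand was higher in lung and its death receptor and both membrane decoys were lower, while Fas ligand and TL1A were higher together with their receptors. Of the whole group, all 3 ligands and 2 of 7 receptors were called higher in lung, 4 receptors were called lower, and Tnfrsf21 did not pass. The shares over all genes tested were 31.3% higher and 17.5% lower. Tnfsf10, which encodes TRAIL, a ligand that can kill transformed cells, had 123, 48.2 and 158 CPM in lung, against 0.373, 0.634 and 0.474 CPM in the cell line. Even the lowest lung sample, replicate 2, was far above all cell line samples, which held 28 counts together (edgeR adjusted p = 4.01e-05, log2 fold change 7.79 ± 0.59 SE). Tnfrsf10b, the death-domain receptor of TRAIL in mice, had 22.8, 15.1 and 19.2 CPM in lung, against 69.1, 74.0 and 71.0 CPM in the cell line. The cell line values lay close together and above every lung value (edgeR adjusted p = 0.000422, log2 fold change -1.91 ± 0.25 SE). Tnfrsf22, a decoy receptor for TRAIL, had 17.3, 7.87 and 20.3 CPM in lung, against 235, 147 and 152 CPM in the cell line. Tnfrsf23, the other decoy, had 16.7, 8.80 and 21.1 CPM in lung, against 235, 156 and 167 CPM in the cell line. Both decoys were lowest in lung replicate 2 and highest in cell line replicate 1, and neither overlapped between groups. Tnfrsf22 had a log2 fold change of -3.56 (SE 0.42, edgeR adjusted p = 0.000273), and Tnfrsf23 had one of -3.58 (SE 0.39, edgeR adjusted p = 0.000180). Tnfrsf26, which lies beside them in a cluster on chromosome 7, had 5.55, 6.77 and 7.95 CPM in lung, against 147, 84.2 and 83.8 CPM in the cell line. It was lower in every lung sample, and cell line replicate 1 was again the highest (edgeR adjusted p = 6.56e-05, log2 fold change -3.96 ± 0.34 SE).

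**Figure D3:**
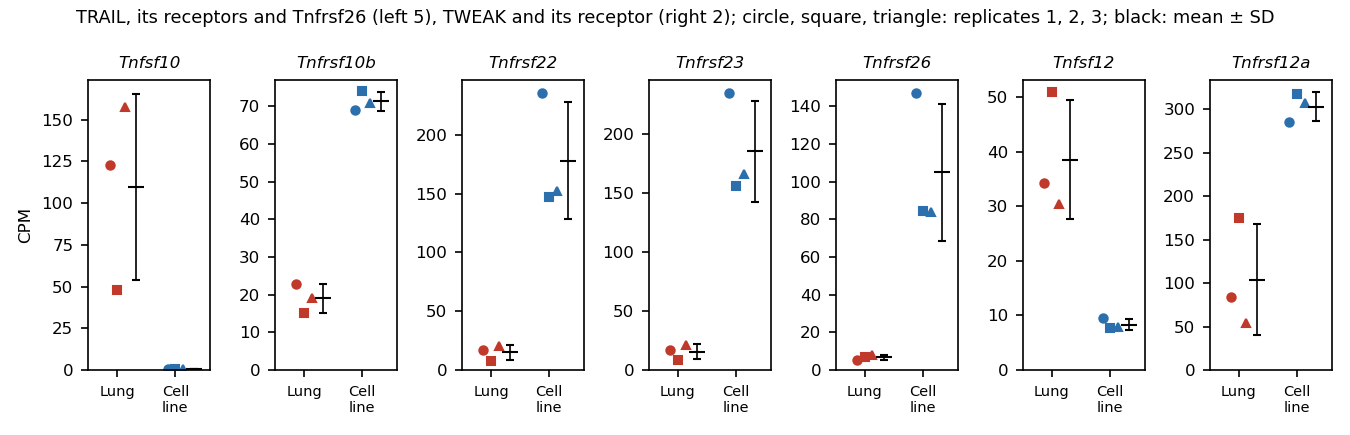
CPM on linear axes from 0 for Tnfsf10 (TRAIL), Tnfrsf10b, Tnfrsf22, Tnfrsf23, Tnfrsf26, Tnfsf12 (TWEAK) and Tnfrsf12a, with lung samples (red) left of cell line samples (blue) and the mean ± SD of 3 samples in black. Both ligands lie higher in lung and all 5 receptors lie higher in the cell line, without overlap between the groups.

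The decoys share sequence, in part coding, which bears on how reads are divided between them. Within coding sequence the longest run of identical bases between Tnfrsf22-201 and Tnfrsf23-202 was 102 bases. It ran from coding position 421 to 522 of the first and from 391 to 492 of the second. Positions are those of GENCODE M21 models, counted from the first coding base. The run is only a part of the sequence that the decoys share. Each run is shown 5′ to 3′ on the coding strand with the identical stretch in capitals and 30 bases on either side in lower case.
Tnfrsf22: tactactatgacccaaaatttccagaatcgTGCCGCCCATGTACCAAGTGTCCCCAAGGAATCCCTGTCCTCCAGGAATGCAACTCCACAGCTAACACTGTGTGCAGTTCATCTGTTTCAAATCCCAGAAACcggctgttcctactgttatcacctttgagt
Tnfrsf23: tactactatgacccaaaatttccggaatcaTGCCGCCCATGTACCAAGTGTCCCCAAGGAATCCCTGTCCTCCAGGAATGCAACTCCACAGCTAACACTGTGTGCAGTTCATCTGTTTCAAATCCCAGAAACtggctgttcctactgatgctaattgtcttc
Neither coding sequence shared a run of more than 10 bases with that of Tnfrsf26. Of all 31-letter words in the transcripts of each gene, 25.46% of those in Tnfrsf22 and 26.63% of those in Tnfrsf23 also stood in the other, so the split of reads between the decoys is uncertain. Their sum does not depend on that split. Summed CPM of the decoys was 33.9, 16.7 and 41.4 in lung, against 470.2, 303 and 319 in the cell line, with a log2 fold change of -3.57 (SE 0.41, edgeR adjusted p = 0.000235).

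Promoters of TRAIL and of a decoy are shown because the genes differed most in opposite directions within 1 ligand and receptor system. The Tnfsf10 window of RefSeq, GRCm38.p6 chr3:27316827-27317126 on the plus strand, held none of the 4 motifs and so has no capitals. The Tnfrsf23 window, chr7:143685826-143686125 on the minus strand, held TTTATA, the reverse complement of TATAAA, at position -158 and CCGCCC at position -92, both in capitals.
Tnfsf10 promoter: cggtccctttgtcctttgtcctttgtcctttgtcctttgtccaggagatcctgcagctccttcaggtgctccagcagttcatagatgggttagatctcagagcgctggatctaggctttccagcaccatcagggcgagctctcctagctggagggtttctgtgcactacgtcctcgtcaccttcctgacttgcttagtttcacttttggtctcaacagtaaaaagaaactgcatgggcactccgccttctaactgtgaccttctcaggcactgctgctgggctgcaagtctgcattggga
Tnfrsf23 promoter: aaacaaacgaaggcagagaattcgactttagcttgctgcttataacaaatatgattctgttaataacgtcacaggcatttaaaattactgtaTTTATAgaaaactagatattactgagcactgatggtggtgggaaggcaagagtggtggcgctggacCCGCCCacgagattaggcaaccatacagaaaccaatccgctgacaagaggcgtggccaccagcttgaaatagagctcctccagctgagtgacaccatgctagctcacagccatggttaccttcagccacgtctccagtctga

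Fas ligand and its receptor were both more abundant in lung. Fas, the death receptor through which cytotoxic lymphocytes kill, had 28.3, 31.6 and 26.3 CPM in lung, against 1.07, 0.346 and 0.158 CPM in the cell line. The lung samples were all above the cell line samples, in which Fas came to 32 counts in all (edgeR adjusted p = 0.000144, log2 fold change 5.72 ± 0.59 SE). Without cell line replicate 1 the log2 fold change of Fas was 6.81. Fasl, made by cytotoxic lymphocytes, ranged from 2.61 to 2.92 CPM in lung and from 0 to 0.187 CPM in the cell line, with a log2 fold change of 4.69 (SE 0.72, edgeR adjusted p = 0.00102). That value was 5.50 without cell line replicate 1 and 4.08 without replicate 3. Tnfsf15 (TL1A), the ligand of Tnfrsf25, ranged from 0.885 to 1.45 CPM in lung and from 0 to 0.280 CPM in the cell line (edgeR adjusted p = 0.0128, log2 fold change 3.27 ± 0.84 SE). Its log2 fold change was 5.14 without cell line replicate 1 and 2.67 without replicate 3, and without replicate 2 its adjusted p was 0.0519. Tnfrsf25 (DR3), a death-domain receptor of T cells, ranged from 3.01 to 4.10 CPM in lung and from 0.173 to 0.369 CPM in the cell line (edgeR adjusted p = 0.000430, log2 fold change 3.68 ± 0.48 SE). Tnfrsf21 (DR6), a death-domain receptor found in many tissues, had 66.2, 46.5 and 57.3 CPM in lung, against 53.0, 117 and 121 CPM in the cell line. The ranges overlapped because cell line replicate 1 lay among the lung samples, and the test was not passed (edgeR adjusted p = 0.101, log2 fold change -0.77 ± 0.35 SE). Without that replicate Tnfrsf21 was called lower in lung, at -1.08 (edgeR adjusted p = 0.0101).

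The co-stimulation group links antigen-presenting cells and T cells. Of 12 members 9 were tested, of which 1 ligand and 4 receptors were called higher in lung and 4 did not pass. None was called lower by edgeR, DESeq2 or limma-voom in adjusted or unadjusted form. Among all genes tested, edgeR called 31.3% higher and 17.5% lower. Cd40, the receptor through which T cells license B cells and dendritic cells, had 15.6, 21.3 and 15.5 CPM in lung, against 1.59, 0.921 and 0.527 CPM in the cell line. The groups were well apart (edgeR adjusted p = 0.000182, log2 fold change 4.09 ± 0.45 SE). Cd27, a receptor of T cells and memory B cells, had 7.27, 8.09 and 7.32 CPM in lung, against 0.840, 0.749 and 0.421 CPM in the cell line. Its lung values lay within a narrow band above the cell line (edgeR adjusted p = 0.000207, log2 fold change 3.48 ± 0.40 SE). Both genes were lowest in cell line replicate 3, the cell line sample with the lowest B cell and T cell marker sums. Some other members that lymphocytes express, such as Tnfsf8, Lta and Tnfrsf13b, were lowest in it too. Others were not: Cd40lg, Tnfrsf18 and Tnfrsf25 were highest in that sample, at 0.580, 0.316 and 0.369 CPM, all on few counts. Tnfrsf4 was lowest in replicate 1 and Tnfrsf13c in replicate 2. The relation of members to these marker sums was not tested. Tnfsf8, the ligand of CD30 on activated lymphocytes, had 4.63, 4.29 and 4.78 CPM in lung, against 0.420, 0.346 and 0.158 CPM in the cell line. Lung samples were close to each other and well above the cell line (edgeR adjusted p = 0.000321, log2 fold change 3.86 ± 0.48 SE). Tnfrsf18 (GITR), a receptor of regulatory T cells, ranged from 4.67 to 10.04 CPM in lung and from 0.0933 to 0.316 CPM in the cell line (edgeR adjusted p = 0.000286, log2 fold change 5.04 ± 0.60 SE). All 3 regulatory T cell markers were called higher in lung too, at a sum of 9.51 to 13.1 CPM in lung and 0.369 to 0.749 CPM in the cell line. Tnfrsf8 (CD30) ranged from 0.575 to 0.987 CPM in lung and from 0 to 0.173 CPM in the cell line, with a log2 fold change of 3.33 (edgeR adjusted p = 0.0109) that was 4.59 without cell line replicate 2 and 2.72 without replicate 3.

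The 4 co-stimulatory members that did not pass had overlapping ranges or few counts. Tnfsf9, the ligand of CD137 on antigen-presenting cells, had 5.47, 6.46 and 5.09 CPM in lung, against 5.32, 5.41 and 6.53 CPM in the cell line. The ranges overlapped almost fully (edgeR adjusted p = 0.960, log2 fold change -0.02 ± 0.29 SE). The sign of its fold change turned under 6 alternative settings. Tnfrsf9 (CD137), a receptor of activated T cells, had 7.31, 8.14 and 7.999 CPM in lung, against 13.2, 7.03 and 7.59 CPM in the cell line. Cell line replicate 1 stood above the other samples, which overlapped (edgeR adjusted p = 0.555, log2 fold change -0.25 ± 0.33 SE), and without it the log2 fold change was 0.08. Tnfrsf4 (OX40), another receptor of activated T cells, had 2.88, 5.79 and 3.06 CPM in lung, against 1.07, 2.88 and 2.58 CPM in the cell line. The ranges overlapped (edgeR adjusted p = 0.193, log2 fold change 0.85 ± 0.50 SE). Cd40lg, the T cell ligand of CD40, had 0.639, 0.752 and 1.09 CPM in lung, against 0.187, 0.115 and 0.580 CPM in the cell line. All lung samples lay above all cell line samples, yet the test was not passed (edgeR adjusted p = 0.0974, log2 fold change 1.47 ± 0.65 SE). Without cell line replicate 3 Cd40lg was called higher, at 2.33 (edgeR adjusted p = 0.0407). The remaining 3 ligands were too scarce to be tested. Tnfsf4 (OX40 ligand) came to 19 counts in lung and 8 in the cell line. Tnfsf18 (GITR ligand) came to 34 counts in lung and 3 in the cell line, a CPM ratio of 9.79 (95% exact interval 3.08 to 49.8). Cd70, the ligand of CD27, came to 2 counts in lung and 0 in the cell line, both under the floor of 3 counts.

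All tested members of the B cell survival system, 3 ligands and 2 receptors, were called higher in lung, beside 31.3% of all genes tested. Tnfsfm13 shares sequence with Tnfsf13, so the ligands are not 3 separate results. Tnfsf13b encodes BAFF, the survival factor of mature B cells, and had 31.8, 30.2 and 31.3 CPM in lung, against 0.327, 0.634 and 0.580 CPM in the cell line. The lung samples were nearly equal and well above the cell line (edgeR adjusted p = 2.20e-05, log2 fold change 5.92 ± 0.35 SE). Tnfsf13 (APRIL), a survival factor of plasma cells, had 18.7, 31.1 and 15.7 CPM in lung, against 1.17, 1.61 and 1.26 CPM in the cell line. Lung replicate 2 was the highest sample, and the groups did not overlap (edgeR adjusted p = 9.47e-05, log2 fold change 4.01 ± 0.38 SE). Tnfsfm13 is a gene model that runs through the neighbouring genes Tnfsf12 and Tnfsf13 on chromosome 11, and it had 21.1, 29.0 and 22.6 CPM in lung, against 3.83, 3.23 and 2.58 CPM in the cell line. Every lung value exceeded every cell line value (edgeR adjusted p = 0.000121, log2 fold change 2.91 ± 0.29 SE). Of the 31-letter words of Tnfsfm13 transcripts, 31.09% also stood in Tnfsf12 and 42.28% in Tnfsf13, so the division of reads among these 3 is uncertain. Summed over them, the log2 fold change was 2.71 (SE 0.29, edgeR adjusted p = 0.000153). The receptors differed less. Tnfrsf13b (TACI), a receptor for BAFF and APRIL on B cells, had 19.5, 21.0 and 16.9 CPM in lung, against 3.64, 3.97 and 1.95 CPM in the cell line. Lung samples lay above the cell line, whose replicate 3 was the lowest (edgeR adjusted p = 0.000478, log2 fold change 2.58 ± 0.34 SE). Tnfrsf13c, the BAFF receptor, had 4.71, 10.7 and 6.03 CPM in lung, against 3.27, 1.96 and 2.53 CPM in the cell line. The groups were separate but close, with lung replicate 2 the highest (edgeR adjusted p = 0.0204, log2 fold change 1.46 ± 0.42 SE). Its adjusted p was 0.0501 when lung replicate 2 was left out, and it was 0.0880 and 0.0692 when replicate 2 or replicate 3 of the cell line was left out. Tnfrsf17 (BCMA), the receptor of plasma cells, was too scarce to be tested, with 22 counts in lung and 1 in the cell line, a CPM ratio of 19.0 (95% exact interval 3.07 to 784). All 6 B cell markers were called higher in lung beside these members, with sums given above, and their part in the result was not tested.

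The remaining members include genes of tissue repair, bone and skin development. Of 9, 6 were called higher, 1 lower and 2 did not pass, beside 31.3% higher and 17.5% lower over all genes tested. Tnfsf12 encodes TWEAK, a ligand known from macrophages and injured tissue, and had 34.3, 51.0 and 30.3 CPM in lung, against 9.47, 7.72 and 7.80 CPM in the cell line. All lung samples were above all cell line samples (edgeR adjusted p = 0.000445, log2 fold change 2.21 ± 0.29 SE). Tnfrsf12a encodes Fn14, the receptor of TWEAK, known from injured and transformed cells, and had 83.7, 175 and 53.5 CPM in lung, against 285, 318 and 307 CPM in the cell line. Every lung sample lay below the cell line samples, but lung replicate 2 was far above the other lung samples (edgeR adjusted p = 0.0175, log2 fold change -1.54 ± 0.43 SE). The call was lost without lung replicate 1 (edgeR adjusted p = 0.0646), and without lung replicate 2 the log2 fold change was -2.21. Its promoter is shown because Tnfrsf12a had the highest mean level per transcript length of all members in both groups. In lung that rank rested on replicate 2, as Tnfrsf1a was higher per length in replicates 1 and 3. The RefSeq window, GRCm38.p6 chr17:23677400-23677699 on the minus strand, held GGGCGG or its reverse complement at positions -191, -87, -66, -50 and -44, in capitals, and none of the other motifs.
Tnfrsf12a promoter: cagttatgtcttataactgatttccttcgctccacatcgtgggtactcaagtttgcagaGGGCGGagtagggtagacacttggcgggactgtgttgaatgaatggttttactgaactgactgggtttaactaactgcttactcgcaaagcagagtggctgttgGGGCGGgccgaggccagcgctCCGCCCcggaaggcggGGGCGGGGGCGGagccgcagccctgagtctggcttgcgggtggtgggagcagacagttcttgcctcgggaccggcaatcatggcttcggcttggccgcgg

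Tnfrsf19 (TROY), an orphan receptor known from embryonic and stem-like epithelium, had 39.7, 18.7 and 48.9 CPM in lung, against 0.327, 0.230 and 0 CPM in the cell line. It was nearly absent from the cell line, at 11 counts in all, and lowest in replicate 2 among the lung samples (edgeR adjusted p = 0.000125, log2 fold change 7.52 ± 0.76 SE). Without cell line replicate 1 the log2 fold change of Tnfrsf19 was 8.24, and without replicate 3 it was 6.91. Tnfrsf11b, the secreted decoy osteoprotegerin that binds RANK ligand and TRAIL, had 11.9, 7.39 and 9.97 CPM in lung, against 2.43, 1.38 and 0.896 CPM in the cell line. The groups were apart (edgeR adjusted p = 0.00163, log2 fold change 2.62 ± 0.44 SE). Tnfsf11 (RANK ligand), which drives osteoclast formation, ranged from 1.402 to 1.997 CPM in lung and from 0.140 to 0.738 CPM in the cell line (edgeR adjusted p = 0.0485, log2 fold change 1.70 ± 0.61 SE). Its call was lost without any 1 of the 6 samples, with adjusted p-values from 0.0548 without cell line replicate 1 to 0.147 without lung replicate 1. Tnfrsf11a (RANK), the receptor of RANK ligand, had 12.1, 5.31 and 15.9 CPM in lung, against 7.28, 8.06 and 7.32 CPM in the cell line. The cell line lay inside the range of the lung samples, of which replicate 2 was the lowest (edgeR adjusted p = 0.285, log2 fold change 0.56 ± 0.40 SE). Without lung replicate 2 Tnfrsf11a was called higher, at 0.83 (edgeR adjusted p = 0.0224). Ngfr, the low-affinity neurotrophin receptor, ranged from 1.55 to 2.39 CPM in lung and from 0.288 to 0.369 CPM in the cell line (edgeR adjusted p = 0.00229, log2 fold change 2.52 ± 0.46 SE).

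Ectodysplasin and its receptor went in different directions, though not both past the test. Eda, the ligand that shapes skin appendages, had 3.595, 1.46 and 4.67 CPM in lung, against 6.30, 5.53 and 5.64 CPM in the cell line. All lung samples lay below the cell line samples, but the test was not passed (edgeR adjusted p = 0.152, log2 fold change -0.85 ± 0.45 SE). Edar, its receptor, ranged from 0.840 to 1.66 CPM in lung and came to 79 counts there against 1 count in the cell line, a CPM ratio of 68.2 (95% exact interval 11.9 to 2729; edgeR adjusted p = 0.000943). Eda2r, another ectodysplasin receptor that the symbol rule does not take, had 4.95, 1.46 and 3.84 CPM in lung, against 0.560, 0.173 and 0.211 CPM in the cell line. It was higher in every lung sample (edgeR adjusted p = 0.00378, log2 fold change 3.39 ± 0.68 SE), and its log2 fold change was 4.10 without cell line replicate 1. Relt, the other family receptor outside the rule, did not pass the test (edgeR adjusted p = 0.548).

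The CPM sums above, and the choice of genes to name, took no account of transcript length. Here levels of different genes are set side by side per transcript length, as TPM, with the SD over 3 samples. TPM are counts per base of annotated transcript scaled to the same total in every sample. In lung the highest members were Tnfrsf12a at 183 ± 70.9 TPM, Tnfrsf1a at 166 ± 34.7 TPM and Ltbr at 105 ± 6.85 TPM. The first pair was not apart beyond its spread. Ltb at 54.3 ± 9.47, Tnfsf12 at 48.6 ± 2.76, Tnfrsf1b at 45.7 ± 21.2 and Tnfsf10 at 44.0 ± 27.3 TPM came next and were not apart from each other. In the cell line Tnfrsf12a led at 554 ± 29.9 TPM, above all other members by more than the spread. Tnfrsf23 at 138 ± 30.9, Tnfrsf22 at 89.8 ± 21.4, Ltbr at 79.3 ± 16.0, Tnfrsf1a at 71.6 ± 13.9 and Tnfrsf26 at 60.2 ± 21.4 TPM followed. The highest ligands in the cell line were Tnfsf12 at 10.3 ± 1.30, Tnfsf9 at 7.94 ± 0.877 and Ltb at 7.11 ± 3.00 TPM, all below the 8 most abundant receptors there. Summed over ligands, TPM came to 257.5 ± 22.6 in lung and 34.3 ± 3.86 in the cell line. Summed over receptors, it came to 737 ± 53.6 in lung and 1120.0 ± 62.2 in the cell line.

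**Figure D4:**
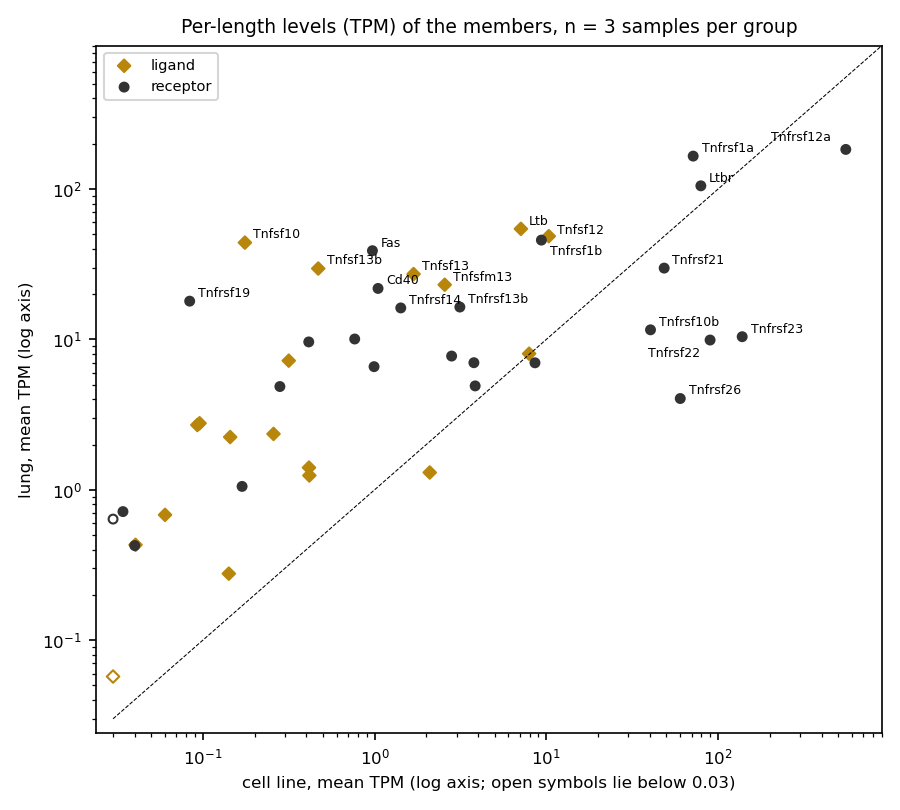
Mean TPM of each member in lung (vertical log axis) against the cell line (horizontal log axis), n = 3 samples per group, with diamonds for ligands, circles for receptors and a dashed line at equal levels. Tnfrsf12a, Tnfrsf23, Tnfrsf22, Tnfrsf26, Tnfrsf10b and Tnfrsf21 are among the members below the line, and most ligands lie well above it.

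The table gives counts per transcript, so the make-up of a gene could be followed for the 26 members with at least 100 counts in every sample of a group. Tnfrsf23 was counted mostly on Tnfrsf23-201, a transcript annotated for nonsense-mediated decay, with shares of 86.3, 89.5 and 89.6% in lung and of 71.0, 70.3 and 68.4% in the cell line. The coding transcript Tnfrsf23-202 held 13.4, 9.99 and 10.4% in lung and 28.7, 28.9 and 30.98% in the cell line. The groups did not overlap, although 3 samples against 3 cannot reach an exact two-sided p below 0.1. With transcripts annotated as protein-coding alone, the log2 fold change of Tnfrsf23 was -4.90 (edgeR adjusted p = 6.94e-05). Tnfrsf22-201 held 59.9, 48.1 and 83.5% of the counts of its gene in lung and 88.5, 79.4 and 80.3% in the cell line, and these ranges overlapped. Tnfsfm13-202 held 34.5, 24.7 and 40.4% of Tnfsfm13 counts in lung and none in the cell line, where Tnfsfm13-203 held all of them. For Tnfsf13b, a transcript annotated for nonsense-mediated decay, Tnfsf13b-205, held 37.3, 50.6 and 35.5% of the counts in lung. The cell line held only 29 counts of Tnfsf13b, too few to compare. Estimated shares between transcripts that overlap are less certain than the gene sums.

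**Figure D5:**
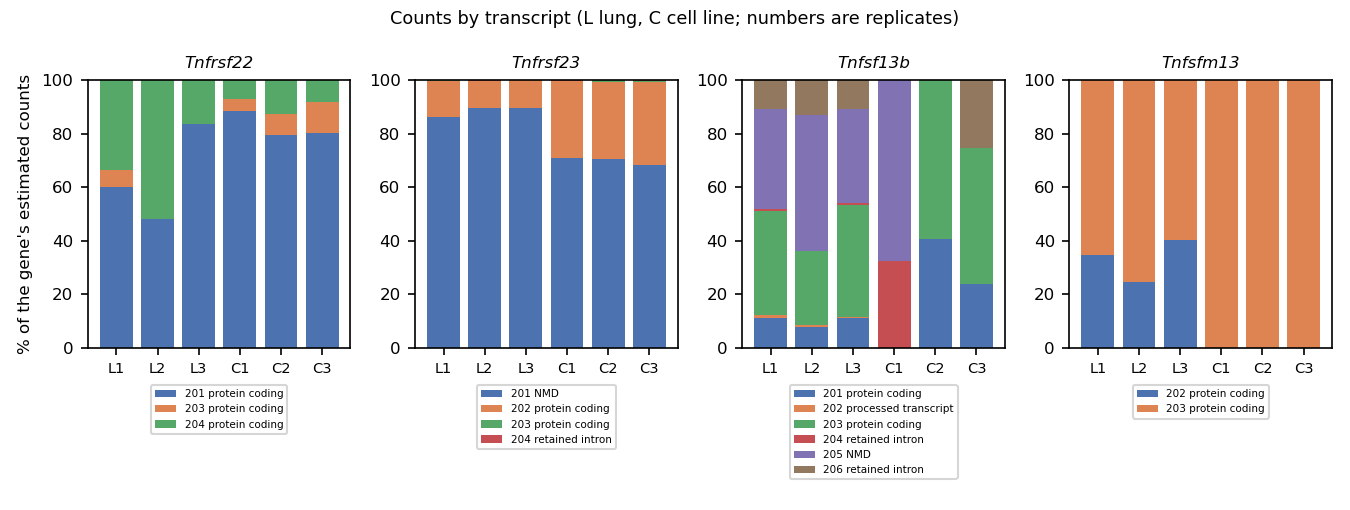
Share of each gene's estimated counts by annotated transcript, in percent, for Tnfrsf22, Tnfrsf23, Tnfsf13b and Tnfsfm13, with the 3 lung samples left of the 3 cell line samples. Tnfrsf23-201 holds 86.3 to 89.6% in lung and 68.4 to 71.0% in the cell line, and Tnfsfm13-202 is found in lung alone, while the cell line bars of Tnfsf13b rest on 29 counts.

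Genes downstream of the receptors were called in both directions, as were genes at large. Over all 15212 genes tested, 31.3% were called higher and 17.5% lower in lung. Of 27 adaptors, death-domain proteins and ubiquitin enzymes, 4 were called higher (Traf1, Traf5, Ripk3 and Birc3) and 3 lower (Traf4, Mlkl and Tab3), and 20 did not pass, with a median log2 fold change of 0.03. Birc3, an inhibitor of apoptosis in the TNF receptor complex, had 58.0, 42.5 and 64.2 CPM in lung, against 16.1, 10.4 and 9.32 CPM in the cell line. It was higher in every lung sample (edgeR adjusted p = 0.000652, log2 fold change 2.20 ± 0.31 SE). Traf4, an adaptor of the same family as Traf1, had 59.9, 86.5 and 45.8 CPM in lung, against 118, 113 and 114 CPM in the cell line (edgeR adjusted p = 0.0371, log2 fold change -0.85 ± 0.28 SE). Tab3, which joins ubiquitin chains to the kinase TAK1, had 20.9, 9.29 and 20.1 CPM in lung, against 37.3, 34.9 and 38.9 CPM in the cell line (edgeR adjusted p = 0.0221, log2 fold change -1.14 ± 0.33 SE). Mlkl, the executor of necroptosis, had 16.2, 24.5 and 19.3 CPM in lung, against 23.2, 50.2 and 48.8 CPM in the cell line and overlapped between groups (edgeR adjusted p = 0.0394, log2 fold change -1.03 ± 0.35 SE). The number of lower calls in this list varied with the setting. Scaling by library size alone called 9 of the 27 higher and 0 lower, with log2 fold changes of -0.62 for Traf4, -0.79 for Mlkl and -0.91 for Tab3. DESeq2 called 6 higher and 6 lower, edgeR without lung replicate 2 called 6 higher and 5 lower, and without lung replicate 2 and cell line replicate 1 together it called 10 higher and 9 lower. Of 15212 genes, library size alone called 5210 higher and 1728 lower, and DESeq2 called 4943 higher and 3217 lower. Without lung replicate 2, 5148 of 15531 genes were called higher and 3773 lower. Without both samples the shares over all genes were 43.2% higher and 35.2% lower. With single samples left out, the calls of Traf4, Mlkl and Tab3 were lost in several cases while the direction was kept in every one. For Traf4 this was so without lung replicate 1 or 3 or any cell line replicate, at log2 fold changes from -0.95 to -0.65 and adjusted p-values up to 0.127. For Mlkl it was so without lung replicate 1 or 3 or cell line replicate 2 or 3, at log2 fold changes of -0.89 or lower and adjusted p-values up to 0.130. Tab3 lost its call without cell line replicate 3, at a log2 fold change of -1.16 (edgeR adjusted p = 0.0560).

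Of 13 NF-kB kinases, subunits and inhibitors, 3 were called higher and none lower by edgeR, and 0 were lower at an unadjusted p below 0.05. The shares over all genes tested were 31.3% higher and 17.5% lower. DESeq2 called 0 lower after adjustment and 1 before it, and limma-voom called 0 lower in either form. Without lung replicate 2 and cell line replicate 1 together, edgeR called 6 of the 13 higher and 0 lower. In that setting 43.2% of all genes tested were called higher and 35.2% lower. Nfkbia, the inhibitor that NF-kB itself induces, had 80.1, 105 and 98.9 CPM in lung, against 26.9, 34.5 and 30.3 CPM in the cell line. Its lung samples were all above the cell line (edgeR adjusted p = 0.000788, log2 fold change 1.63 ± 0.24 SE). Nfkbie, a related inhibitor, had 35.2, 40.4 and 33.5 CPM in lung, against 7.89, 5.82 and 4.58 CPM in the cell line (edgeR adjusted p = 0.000203, log2 fold change 2.57 ± 0.29 SE). Map3k14, the kinase of the non-canonical branch that BAFF, CD40 and lymphotoxin receptors use, had 25.4, 22.91 and 28.1 CPM in lung, against 8.54, 10.5 and 11.5 CPM in the cell line (edgeR adjusted p = 0.00261, log2 fold change 1.324 ± 0.25 SE). Both genes were higher in every lung sample. Of 17 genes known to respond to TNF through NF-kB, 8 were called higher, 6 lower and 3 did not pass, with a median log2 fold change of 0.51. These counts stand beside the same shares of 31.3% and 17.5% over all genes tested. Vcam1, an adhesion molecule of activated endothelium, had 393, 214 and 316 CPM in lung, against 88.7, 92.2 and 83.1 CPM in the cell line (edgeR adjusted p = 0.00128, log2 fold change 1.80 ± 0.29 SE). Ptgs2, the inducible cyclooxygenase, had 21.4, 9.33 and 27.5 CPM in lung, against 562, 983 and 989.6 CPM in the cell line (edgeR adjusted p = 0.000102, log2 fold change -5.44 ± 0.52 SE). Tnfaip2, a protein first found by its induction by TNF, had 98.5, 76.5 and 117 CPM in lung, against 361, 286 and 299 CPM in the cell line (edgeR adjusted p = 0.00114, log2 fold change -1.70 ± 0.27 SE). Selp, the adhesion molecule P-selectin of platelets and endothelium, had 6.87, 1.99 and 8.31 CPM in lung, against 52.5, 99.4 and 96.0 CPM in the cell line (edgeR adjusted p = 0.000725, log2 fold change -3.85 ± 0.55 SE). In these 4 genes the groups did not overlap, with Vcam1 higher and the others lower in lung. Of 8 proteases and cofactors that shed ligands and receptors from the membrane, edgeR called 0 at an adjusted p below 0.05 and 2 lower at an unadjusted one. DESeq2 called 1 lower after adjustment, limma-voom called 0, and without lung replicate 2 edgeR called 2 higher and 1 lower, against 0 higher and 2 lower without cell line replicate 1. With both of those samples left out it called 4 higher and 3 lower, against 43.2% higher and 35.2% lower of all genes tested in that way. Over all genes, 5148 of 15531 were higher and 3773 lower without lung replicate 2. Without cell line replicate 1, 5190 of 15665 were higher and 2972 lower.

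Lung replicate 2 deviated with transcript length, over all genes and among the members. Of the tested genes with a level in the other lung samples, it was above their mean in 82.9% of the 5265 with a main transcript under 2107 bases, with a median ratio of 1.49, and below it in 83.6% of the 9910 others, with a median ratio of 0.65. Among the 20 tested members with a shorter main transcript, of 984 to 1999 bases, lung replicate 2 was above the mean of the other lung samples in 15, with a median ratio of 1.29. Among the 21 with a longer one, of 2107 to 5027 bases, it was below in 16, with a median ratio of 0.68. Tnfsf10, Tnfrsf22, Tnfrsf23 and Tnfrsf19 were among the low ones and Tnfrsf12a, Ltb and Tnfsf12 among the high ones. Marker sums of some cell types were low in the same sample and those of others were high. The 6 endothelial markers summed to 1595, 818 and 1928 CPM in lung, against 14.8, 10.8 and 6.85 CPM in the cell line, and the 6 fibroblast markers to 2512, 796 and 2771 CPM in lung, against 23.1, 20.6 and 14.2 CPM in the cell line, where Lum was at 0. All 12 were called higher in lung. Replicate 2 was below both other lung samples in 5 of the 6 endothelial markers, but Cldn5 was highest there, at 173.5, 259.5 and 194.4 CPM. Of the 6 fibroblast markers, 6 were lower in replicate 2 than in replicate 3 and 4 were lower than in replicate 1. Sums were highest in replicate 2 for B cell markers (142, 281 and 177 CPM), neutrophil markers (168, 322 and 205 CPM) and alveolar type 2 markers (14580, 21140 and 17460 CPM). The part of transcript length and of these cell types in the comparison was not tested. With lung replicate 2 and cell line replicate 1 both left out 30 members were called higher and 6 lower, against 43.2% higher and 35.2% lower of all genes tested without them.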

How the data were processed

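The authors deposited 1 table of estimated counts per transcript with a column per sample. The build GRCm39 and the tools Salmon 1.4.0, FastQC 0.11.9 and DESeq2 1.32.0 are named per the submitters' processing notes, and per the labels' protocols RNA was amplified and a stranded mRNA kit was used. What DESeq2 did and which annotation was used is not given in the sources used here. Of 76776 transcripts, 76521 (99.67%) matched GENCODE M21, which belongs to another build and served for names, coding models and lengths only. The other 255 held 0.107 to 0.416% of the counts of a sample and were left out.

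Counts were summed per gene symbol and rounded. The main test was the edgeR 4.0.16 quasi-likelihood test (R 4.3.3) with group as the only term, TMM scaling, the expression filter by group and Benjamini-Hochberg adjustment over 15212 genes. Adjusted p below 0.05 was the threshold, and every p given for a gene comes from this test unless another is named. SE is the absolute log2 fold change divided by the square root of F. Ratios with 1 to 3 counts in a group have 95% exact intervals. Estimated counts do not correct for differences in isoform length between groups.

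The members, lists and tests were chosen with earlier results of these data known, so no list was tested. Values per sample are given for every member lower in lung, the 8 ligands and 10 receptors highest in lung among those called higher, the 8 members highest in the cell line, every tested member that did not pass and members at 0 in a group. Highest here means by mean CPM. Of pathway lists, the 3 called genes with the highest level and the 2 largest changes in the less common direction are described. Other genes are named to spell out a count, and those were chosen after their values were seen. Alternatives were scaling by library size alone or by DESeq2 size factors, 2 other filters, the DESeq2 1.42.0 Wald test, limma-voom (limma 3.58.1), protein-coding transcripts alone, the replicate number as a block, glmTreat against 2-fold, and samples left out. Summing members that share sequence was chosen after seeing the data. On simulated data with 200 changed genes edgeR missed all of the smaller changes, of 2-fold, and part of the larger ones. DESeq2 found more but made a larger share of false calls, and edgeR's own share lay above the adjusted p threshold. In the real data edgeR called 4758 genes higher and 2664 lower. The shares missed in the simulation therefore do not carry over. Changes near 2-fold were called in the real data, such as Tnfrsf1a at a log2 fold change of 1.12 and Traf4 at -0.85. A p above the threshold still does not show that levels were alike.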

Additional observations from a re-analysis of the deposited data

How the results depend on the processing

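Over 642 refits of single members, 610 kept direction and call, 18 lost the call, 6 gained one and 8 turned sign; 30 of 41 members changed in none. Tnfrsf9 turned to 0.063 without cell line replicate 1 and lung replicate 2 together, and ranged from -0.492 to 0.084 with 1 sample left out. Tnfsf9 turned to 0.211 with library size alone, 0.174 with 10 or more counts in all 6 samples and 0.042 with protein-coding transcripts, and ranged from -0.185 to 0.053 with 1 sample left out. The cause was not tested, and both members missed the threshold throughout. Among all genes, library size alone called 1728 lower and moved the median log2 fold change to 0.31, against 0.08 with TMM, and the share of calls that were higher to 75.1% against 64.1%. The stricter filter tested fewer genes and called 2555 higher and 1701 lower, and 10 members higher. Without both samples that stood apart, 5425 genes were lower, and glmTreat against 2-fold, which asks for more than a difference, left 703 lower. With 1 sample left out, calls ranged from 4249 to 5190 higher and from 1820 to 3773 lower over all genes, and from 24 to 28 higher and from 4 to 6 lower among members. Deviations from the group mean of log2 CPM were correlated between lung and cell line samples. The correlations were -0.035, 0.067 and -0.071 for same-numbered samples and from -0.075 to 0.104 for the other pairs. With 3 samples per group, and 1 in each that stood apart, this check cannot exclude a shared batch. The replicate block called 4634 genes higher and 2526 lower, and 27 members higher and 5 lower, Tnfsf11 losing its call at 1.84 (adjusted p = 0.0557). Counts limit the scarce members: Tnfrsf17, Tnfsf4, Tnfsf18 and Cd70 could not be tested, and 11 members had 11 or fewer counts over the 3 cell line samples.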
